A study of Mus musculus with 2 samples.

Results

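The genes described here are those of the major histocompatibility complex (MHC) and of the machinery that loads peptides onto MHC molecules. Members were found by symbol in the deposited tables, as every gene whose symbol starts with H2-, the mouse MHC prefix, and a further 16 named genes of antigen processing. This gave 59 genes (71 transcript rows) of the 24411 genes (35034 transcript rows) in the files, of which 43 carried the H2- prefix. All levels are given as TPM, a relative abundance per transcript length that adds up to 1000000 in each library, and the rows of a gene were summed.

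RNA-seq was performed on 2 libraries of dorsal root ganglion (DRG) neuron preparations from male C57BL/6 mice (C57BL/6J in the study's methods) aged 6 to 8 weeks. DRGs are the clusters of sensory nerve cell bodies beside the spinal cord. One pool came from 10 mice injected intraperitoneally with 50% alum, an aluminium salt adjuvant, and the other from 10 mice given the same alum and 100 µg of KLH (keyhole limpet hemocyanin), a protein foreign to mice. Injections were given on day 0 and again on day 14, and thoracic and lumbar DRGs were taken 14 days later. The labels name the control library naïve as well as alum alone, and it is treated here as alum-injected. The libraries are called the alum pool and the KLH pool below. The cells were enriched by digestion and a protein density step, and B lymphocytes were removed with beads. Other cells of the ganglion remained. The study's deconvolution of the RNA-seq data estimated a neuronal majority and a non-neuronal part in these preparations. Each group was 1 pooled library, so no difference below has a replicate check or a test.

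Neuronal markers were abundant. All 10 neuronal markers listed were above 3 TPM in both pools, between 60.8 and 5259.3 TPM in the alum pool, and 6 of 7 satellite glia markers and 4 of 7 Schwann cell markers also passed. Defining markers of antigen-presenting cells were mostly below 3 TPM. The macrophage markers Csf1r, C1qa and C1qc were at 0.113, 0.128 and 0.0659 TPM in the alum pool and at 0.167, 0.110 and 0.0569 TPM in the KLH pool. Those that passed 3 TPM in both pools were the macrophage markers Cd14 and Lyz2 and the dendritic cell markers Flt3 and Zbtb46. Flt3 was the highest of these, at 15.4 and 17.7 TPM.

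MHC class I molecules consist of a heavy chain and the invariant light chain beta-2-microglobulin, and they display peptides from the cytosol to CD8 T cells. The peptides are cut by the proteasome, carried into the endoplasmic reticulum by the TAP transporter, trimmed there, and fitted into the class I groove by tapasin with the chaperones calreticulin, calnexin and ERp57. MHC class II molecules display peptides from the endosomal route to CD4 T cells and are made chiefly by dendritic cells, macrophages and B lymphocytes. NLRC5 and CIITA are the transactivators of the class I and class II genes. Neurons are known for low class I levels at rest, which interferon can raise.

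The promoters of the more abundant class I genes are shown first, with one class II promoter for contrast, because the levels and differences below centre on these genes. Each sequence holds the bases before a RefSeq start of the gene, written 5′ to 3′ on the strand of that gene, from the RefSeq annotation of GRCm38.p6, and for H2-K1, which has more than one annotated start, the first in the table was used. The windows are H2-K1 (chr17:34000348-34000597, minus strand), H2-D1 (chr17:35262844-35263093, plus strand), H2-Q4 (chr17:35379367-35379616, plus strand), B2m (chr2:122147437-122147686, plus strand) and H2-Aa (chr17:34287824-34288073, minus strand). Tap1 and Psmb9 lie head to head, and the run shown on the plus strand covers the 225 bases between their starts (chr17:34187331-34187555). Capitals mark exact matches, on either strand, to CCAAT (a site of the factor NF-Y) or to TGACG (part of a cyclic AMP response element), to GGGATTCC (a kappa B site) or to GAAANNGAAA (the core of an interferon-stimulated response element).
H2-K1: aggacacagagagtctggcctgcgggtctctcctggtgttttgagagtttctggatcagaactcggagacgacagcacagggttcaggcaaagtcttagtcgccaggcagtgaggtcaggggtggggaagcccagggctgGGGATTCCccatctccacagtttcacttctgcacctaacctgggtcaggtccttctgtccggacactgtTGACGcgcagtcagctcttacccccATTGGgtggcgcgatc
H2-D1: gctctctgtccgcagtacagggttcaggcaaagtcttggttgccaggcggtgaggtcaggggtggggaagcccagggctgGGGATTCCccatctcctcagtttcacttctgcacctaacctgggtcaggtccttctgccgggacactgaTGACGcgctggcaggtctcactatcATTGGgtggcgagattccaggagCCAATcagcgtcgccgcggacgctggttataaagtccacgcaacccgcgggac
H2-Q4: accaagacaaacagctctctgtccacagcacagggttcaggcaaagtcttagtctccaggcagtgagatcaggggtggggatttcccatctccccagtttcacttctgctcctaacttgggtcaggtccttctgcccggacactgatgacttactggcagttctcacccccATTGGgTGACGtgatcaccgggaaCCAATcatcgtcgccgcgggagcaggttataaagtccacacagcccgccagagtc
B2m: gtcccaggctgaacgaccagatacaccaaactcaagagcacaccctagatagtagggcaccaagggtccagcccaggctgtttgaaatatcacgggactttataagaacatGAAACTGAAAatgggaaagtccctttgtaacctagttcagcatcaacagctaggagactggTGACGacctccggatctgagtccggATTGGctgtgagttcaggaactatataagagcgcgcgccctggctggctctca
Psmb9 to Tap1: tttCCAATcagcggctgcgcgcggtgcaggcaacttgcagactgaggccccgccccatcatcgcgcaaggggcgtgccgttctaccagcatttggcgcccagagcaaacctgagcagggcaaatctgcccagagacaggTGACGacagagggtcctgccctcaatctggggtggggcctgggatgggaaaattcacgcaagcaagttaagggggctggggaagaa
H2-Aa: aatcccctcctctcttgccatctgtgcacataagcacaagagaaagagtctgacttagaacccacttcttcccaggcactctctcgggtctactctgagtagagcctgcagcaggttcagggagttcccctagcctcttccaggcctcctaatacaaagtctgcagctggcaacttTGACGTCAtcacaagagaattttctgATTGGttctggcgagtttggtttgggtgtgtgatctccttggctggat

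The CCAAT box and TGACG occurred in each of the 6 windows, and in H2-Aa TGACG was read on both strands of a single palindrome. GGGATTCC stood in H2-K1 and H2-D1 and its letters were not in the H2-Q4 window. It began 110 bases before the start used for H2-K1 and 170 bases before that of H2-D1. The H2-K1 window lies inside the span of the gene given below and is not in register with the H2-D1 window. GAAANNGAAA stood in B2m alone of the 6. Only these exact letters were searched, and other spellings of interferon response or kappa B sites were not. A window without a match may therefore still hold such a site. Over 44 promoter windows of 41 members in the RefSeq table, each cut to 250 bases, 84.1% held CCAAT, against 33.8% of all 32544 windows. TGACG was in 40.9% of the members' windows and in 17.8% of all windows, and GGGATTCC in 11.4% and 0.894%. GAAANNGAAA was in 3 members' windows, those of B2m, H2-T22 and H2-T23, which is 6.82%, against 2.98% of all windows. TTCNNNGAA, the letters of a gamma interferon activation site, was in 9.09% and 7.04%. Many H2- promoters are copies of one another, so these windows are not independent, and the matches describe letters and not bound sites.

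A gene was called detected above 3 TPM, the threshold given in the study's methods. By this rule 23 members were detected in the alum pool and 24 in the KLH pool, and 23 were detected in both. The background over all genes was 45.5% detected in both. The one member that crossed the threshold was H2-DMa, at 2.78 and 3.22 TPM. The other 35 members stayed at or below 3 TPM in both pools, 5 of them were listed at 0 in both, and 7 were at 0 in a single pool.

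Of the 59 members, 53 could be placed through their RefSeq identifiers on GRCm38, and 42 of these lie on chromosome 17 between 33919478 (Tapbp) and 37274485 (H2-M3). Members of this one stretch ran from 0 TPM to 71.5 TPM in the alum pool. B2m and the chaperones, which hold the highest levels, lie outside it.

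B2m, the light chain, was the most abundant member at 975.2 TPM in the alum pool and 900.4 TPM in the KLH pool, and 0.447% and 0.553% of all genes were higher. It lies on chromosome 2 from 122147687 to 122153082. Next came the chaperones, which also serve other glycoproteins: Pdia3 (ERp57) at 760.9 and 757.6 TPM, Canx (calnexin) at 680.3 and 687.4 TPM, and Calr (calreticulin) at 303.2 and 288.3 TPM. The levels of these 4 genes differed little between the pools, with log2 ratios from -0.115 for B2m to 0.015 for Canx. Log2 ratios are those of the KLH pool to the alum pool after 1 TPM was added to every level, which shrinks the ratio of low genes. In place of a replicate error, ratios are set against the neighbour SD, the SD of the ratios of the 500 genes closest in abundance, which describes how such genes differ between the same libraries and is no test.

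The classical heavy chains, which present peptides, were far below their light chain. H2-D1 (chromosome 17, 35263094 to 35267497) was at 71.5 TPM in the alum pool and 59.7 TPM in the KLH pool. H2-K1 (chromosome 17, 33996012 to 34000619) was at 37.3 and 32.6 TPM. H2-D1 was thus 1.92 times H2-K1 in the alum pool and 1.83 times in the other. B2m reached 8.96 times the sum of both heavy chains in the alum pool and 9.76 times in the KLH pool. Set against the sum of all H2- class I rows, B2m was 3.76 and 3.94 times higher.

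Among the other class I genes, 8 of 31 were detected in both pools. H2-Q4, from the Q region, was at 67.1 and 54.7 TPM, a level between those of H2-D1 and H2-K1 in each pool. H2-T24 followed at 20.4 and 20.5 TPM, and H2-T22, whose product is recognised by gamma delta T cells, was at 19.3 and 15.9 TPM. Cd1d1, which presents lipids to natural killer T cells, was at 10.9 and 9.45 TPM. H2-M11 was at 9.79 and 10.3 TPM. H2-T23, which encodes Qa-1, a ligand of NKG2 receptors, was at 7.64 and 8.59 TPM. H2-M3, which presents N-formylated peptides, was at 5.07 and 5.05 TPM. H2-Q4, H2-T22 and Cd1d1 were lower in the KLH pool, H2-T23 and H2-M11 were higher, and H2-T24 and H2-M3 were nearly equal. The 23 undetected genes of this group ranged from 0 to 2.96 TPM, the highest being H2-T9 at 2.96 and 1.90 TPM. The H2-M10 genes, known from the vomeronasal organ, were all below 1 TPM, with H2-M10.2 the highest at 0.638 and 0.796 TPM.

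H2-L was listed at 9.12 and 9.77 TPM, although C57BL/6 mice are known not to carry this gene, and the source of its reads was not tested. Its transcript could not be paired with the reference used here, and its overlap with H2-D1 was not measured. H2-Ke6 carries the MHC prefix but encodes a hydroxysteroid dehydrogenase, and it was at 3.51 and 3.28 TPM.

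**Figure D1:**
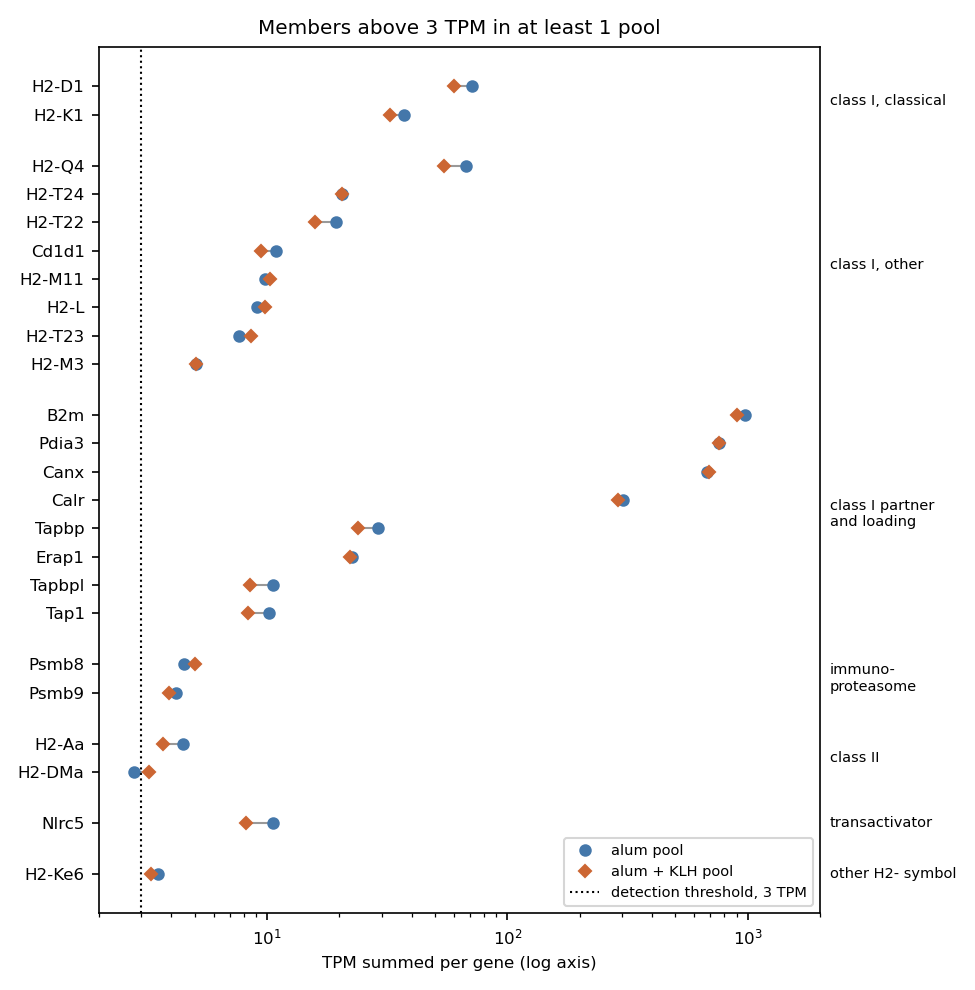
TPM summed per gene (log axis) of the 24 members above 3 TPM in at least 1 pool, by role, with a circle for the alum pool and a diamond for the KLH pool (1 library each). B2m, Pdia3, Canx and Calr sit at 288.3 TPM or more, the class I heavy chains lie between 5.05 and 71.5 TPM, and H2-Aa, H2-DMa, Psmb8 and Psmb9 lie close to the dotted 3 TPM threshold.

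Class I genes are paralogs, and kallisto divides reads among sequences that they share. Shared sequence was measured by counting which 31-mers of a transcript also occur, in either orientation, in transcripts of any other gene in the files that could be paired. GENCODE transcripts could be paired with 55 of the 59 members, and the 4 left out were H2-Ea-ps, H2-L, H2-Q8 and H2-T9. Of the 29 H2- class I genes paired, 4 shared more than 50% of their 31-mers. H2-Q7 and H2-Q9 were nearly the same sequence, with 96.5% of the 31-mers of H2-Q9 found in H2-Q7, and H2-T22 shared 51.9% of its 31-mers with H2-T10. H2-K1 and H2-D1 shared 23.2% and 27.5%, and H2-Q4 shared 33.5%, with the paired transcripts of other genes. Sequence shared with the 4 genes left out was not counted, so these shares could be higher. How reads were split between H2-D1 and H2-L could not be judged. H2-M11, H2-M3 and H2-T24 shared 0.4%, 4.6% and 6.3%. The split of reads among H2-Q6, H2-Q7 and H2-Q9, and between H2-T22 and H2-T10, is therefore uncertain. In unadjusted TPM these low levels can be more than 2-fold apart. H2-Q7 was at 0.204 and 0.732 TPM, and H2-Q9 was at 0.160 and 0 TPM.

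**Figure D2:**
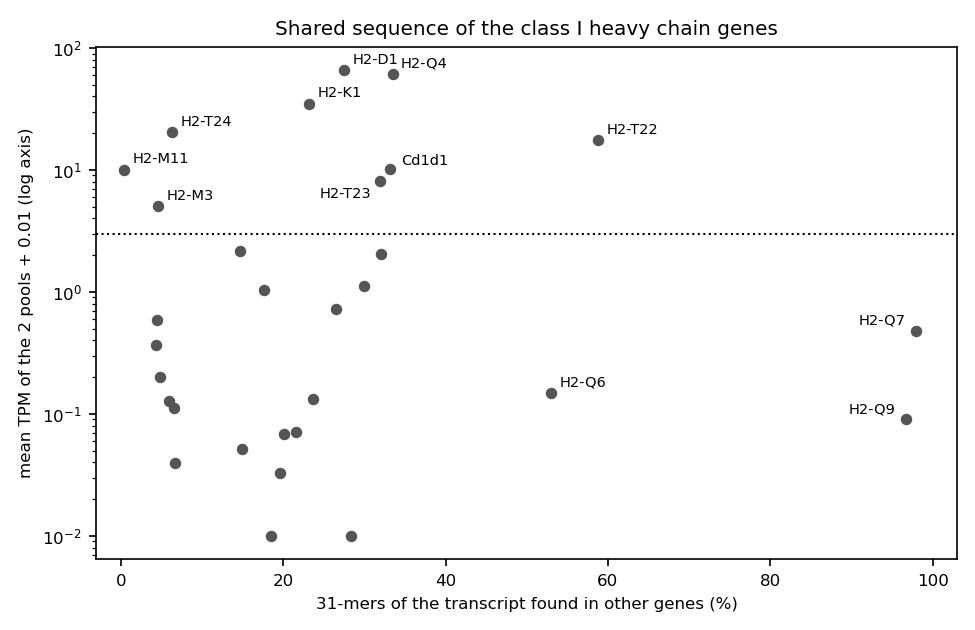
Share of 31-mers found in other genes (horizontal axis, %; the highest value where a gene has several transcripts) against the mean TPM of the pools (vertical axis, log scale, with 0.01 TPM added) for the class I heavy chain genes paired with a transcript, Cd1d1 included. H2-D1, H2-Q4 and H2-K1 have the highest levels with 27.5%, 33.5% and 23.2% shared, and H2-Q7 and H2-Q9 share 98.0% and 96.7% at levels below 1 TPM.

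Of the peptide supply route, Tapbp (tapasin) was at 29.0 TPM in the alum pool and 24.0 TPM in the KLH pool, and Erap1, which trims peptides, at 22.5 and 22.2 TPM. Tapbpl, a tapasin-related peptide editor, was at 10.6 and 8.52 TPM. The TAP subunits were unequal. Tap1 was at 10.2 and 8.32 TPM, and Tap2 at 1.49 and 1.06 TPM was below the threshold, so Tap1 was 6.84 times Tap2 in the alum pool and 7.86 times in the other. Erap1 shared 14.3% of its 31-mers with Cast, and Psmb9 shared 13.8% with Tap1. The GENCODE models of each pair overlap on opposite strands, although the RefSeq models of Psmb9 and Tap1 do not, and the strand setting of the quantification is not given in the sources used here.

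Tapbp is read on a pair of transcripts that were not in the same order in the pools. NM_001025313 was at 17.6 and 9.99 TPM, which is 60.9% and 41.6% of the gene's total. NM_009318 made up the other 39.1% and 58.4%. The log2 ratio was -0.762 for the first, against an SD of 0.428 over the 500 rows closest in level, and 0.288 for the other, against an SD of 0.328. Of the transcripts of Tapbp, only NM_001025313 was lower in the KLH pool. The split of Canx was stable, with NM_001110500 at 76.5% and 75.8% of the gene.

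The immunoproteasome is the form in which 3 catalytic subunits are replaced by interferon-induced ones, which shifts the peptides toward those that fit class I grooves. Psmb8 was at 4.51 TPM in the alum pool and 4.99 TPM in the KLH pool, Psmb9 at 4.16 and 3.91 TPM, and Psmb10 at 1.92 and 1.79 TPM. The subunits that they replace were much higher. Psmb5 was at 36.9 and 30.0 TPM, Psmb6 at 49.4 and 47.6 TPM, and Psmb7 at 443.4 and 459.2 TPM. Psmb8 therefore came to 12.2% of Psmb5 in the alum pool and 16.7% in the other, and the numerator was higher and the denominator lower in the KLH pool. Psmb9 was 8.42% and 8.22% of Psmb6, and Psmb10 was 0.433% and 0.391% of Psmb7. The 3 activator subunits Psme1, Psme2 and Psme3 were all detected. Psme2, which is also interferon-induced, was at 64.5 and 75.9 TPM, a log2 ratio of 0.231 that exceeded its neighbour SD of 0.152. Psme1, at 27.7 and 24.9 TPM, and Psme3, at 108.5 and 107.3 TPM, were lower in the KLH pool, each within its neighbour SD.

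Class II genes were low. H2-Aa, the alpha chain of I-A, was at 4.48 TPM in the alum pool and 3.70 TPM in the KLH pool, and it was the only class II chain of this list that was detected. Its partner H2-Ab1 was at 0.745 and 0.494 TPM, so that H2-Aa was 6.01 and 7.49 times higher than the chain with which it pairs. H2-Eb1 was at 1.38 and 0.849 TPM and H2-Eb2 at 0.114 and 0.177 TPM. H2-Ea-ps, a pseudogene in C57BL/6 mice, was listed at 0 in both pools. Cd74, the invariant chain that accompanies class II molecules and is abundant in antigen-presenting cells, was at 0.971 and 0.768 TPM. The summed class II chains were at 6.72 and 5.22 TPM, and the summed H2-K1 and H2-D1 levels were 16.2 and 17.7 times higher.

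Of the class II loading genes, H2-DMb1 was at 0.158 and 0.227 TPM, H2-DMb2 at 0.0931 and 0.0807 TPM, H2-Ob at 0.0478 and 0.102 TPM, and H2-Oa was listed at 0. Only H2-DMa of these 5 genes, which exchange peptides in the class II groove or regulate that exchange, passed 3 TPM, in a single pool. H2-DMb1 and H2-DMb2 had 37.6% and 37.1% of their 31-mers in common with each other. H2-Aa shared 0.0% with other genes.

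The transactivators differed in level. Nlrc5 (chromosome 8, 94434335 to 94527272) was at 10.6 TPM in the alum pool and 8.20 TPM in the KLH pool. Ciita was at 0.568 and 0.395 TPM, and its signal was spread over different transcripts in the pools, with NM_001243761 at 0.325 and 0 TPM and NM_007575 at 0 and 0.160 TPM. Most of the DNA-binding factors with which both act were present. Of 7 class II promoter factors 6 were detected, among them Rfx5 at 4.06 and 3.81 TPM and Nfyb at 48.1 and 53.0 TPM. Creb1, at 24.3 and 28.6 TPM, was the one gene of that list beyond its neighbour SD, with a log2 ratio of 0.227 (0.162). Rfxank, at 1.94 and 1.72 TPM, was the one of the 7 that was not detected.

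**Figure D3:**
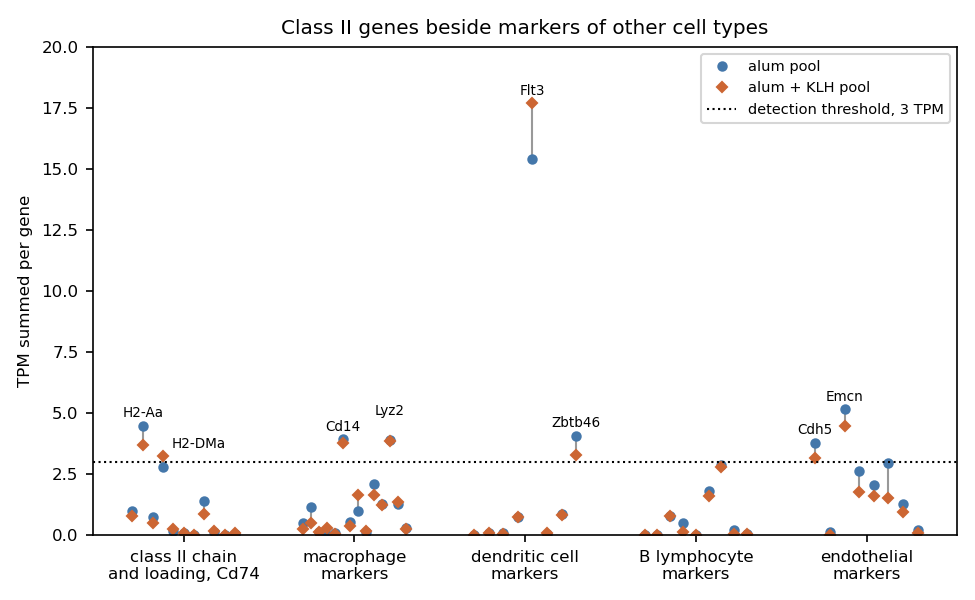
TPM summed per gene of the 11 class II genes and of macrophage, dendritic cell, B lymphocyte and endothelial markers (circles, alum pool; diamonds, KLH pool), with genes above the dotted 3 TPM threshold named. H2-Aa and H2-DMa stand at a level close to that of Cd14, Lyz2, Zbtb46, Cdh5 and Emcn. Flt3, at 15.4 and 17.7 TPM, is the one marker far above the others.

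Markers of cells that make class II were mostly below 3 TPM as well. The 14 macrophage markers summed to 16.2 TPM in the alum pool and 15.5 TPM in the KLH pool, and 2 of them, Cd14 and Lyz2, passed 3 TPM. The 8 dendritic cell markers summed to 21.3 and 22.7 TPM, most of it from Flt3, which passed 3 TPM together with Zbtb46 at 4.07 and 3.28 TPM, while Itgax was at 0.0311 and 0.0800 TPM. The 9 B lymphocyte markers summed to 6.19 and 5.35 TPM and none was detected. In a bulk sample, fewer cells of a type and less RNA per cell cannot be told apart, and the cells that gave the H2-Aa signal were not identified.

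No detected member was 2-fold apart between the pools. Of the 24 members above 3 TPM in at least 1 pool, 0 were higher by 2-fold or more and 0 lower by as much in the KLH pool, and the log2 ratios lay between -0.331 and 0.156. Of the 11648 genes above 3 TPM in at least 1 pool, 0.695% were 2-fold or more higher and 0.944% were lower by as much, which is under 1 gene in a list of 24. The median log2 ratio of the 24 members was -0.073, and that of all 11648 genes was -0.020.

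Smaller differences leaned toward the alum pool. The KLH pool was lower for 17 of the 24 members (70.8%) and higher for 7, while 56.4% of all genes were lower. With the pools scaled to a median ratio of 1 the count was 14 of 24, and relative to Hprt it was 20, so the direction of the smallest differences depends on the scaling. The 56.4% holds for the TPM as deposited only. Scaling to a median ratio of 1 places about as many of all genes lower as higher by design, which is the background for 14. The share of all genes lower relative to Hprt was not computed, so 20 has no background here. In the TPM as deposited 6 of the 24 were lower by more than the neighbour SD, against 11.0% of all genes. None was higher by more than the SD, against 6.05% of all genes. With the pools scaled to a median ratio of 1, Tap1 left this group and 5 members remained, against 9.44% of all genes. Relative to Hprt, B2m, H2-T22 and Tapbpl joined it to give 9, against 23.3% of all genes.

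The 6 members beyond the neighbour SD in the TPM as deposited were H2-D1, H2-K1, H2-Q4, Tapbp, Tap1 and Nlrc5. H2-Q4 had a log2 ratio of -0.290 (neighbour SD 0.130) and H2-D1 of -0.256 (0.136). H2-K1, at -0.189 (0.160), was also outside its neighbour SD. Tapbp was at -0.260 (0.162), Nlrc5 at -0.331 (0.261) and Tap1 at -0.264 (0.263), and Tap1 was thus at its limit. H2-K1, H2-D1 and H2-Q4 share sequence with each other, so their ratios are not fully separate readings. Tapbpl at -0.289 (0.350), H2-T22 at -0.271 (0.321) and H2-Aa at -0.222 (0.446) had ratios of like size within the spread of their neighbours. The neighbour SD was itself uneven between genes of nearly the same level. Tapbpl, at 10.6 and 8.52 TPM, had a larger SD than Nlrc5, at 10.6 and 8.20 TPM, or Tap1, at 10.2 and 8.32 TPM. Which members fell beyond it thus depended on the SD as well as on the ratio. Psmb8 at 0.121 (0.226), H2-T23 at 0.150 (0.517) and H2-DMa at 0.156 (0.547) were the highest of the 24, each within that spread.

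**Figure D4:**
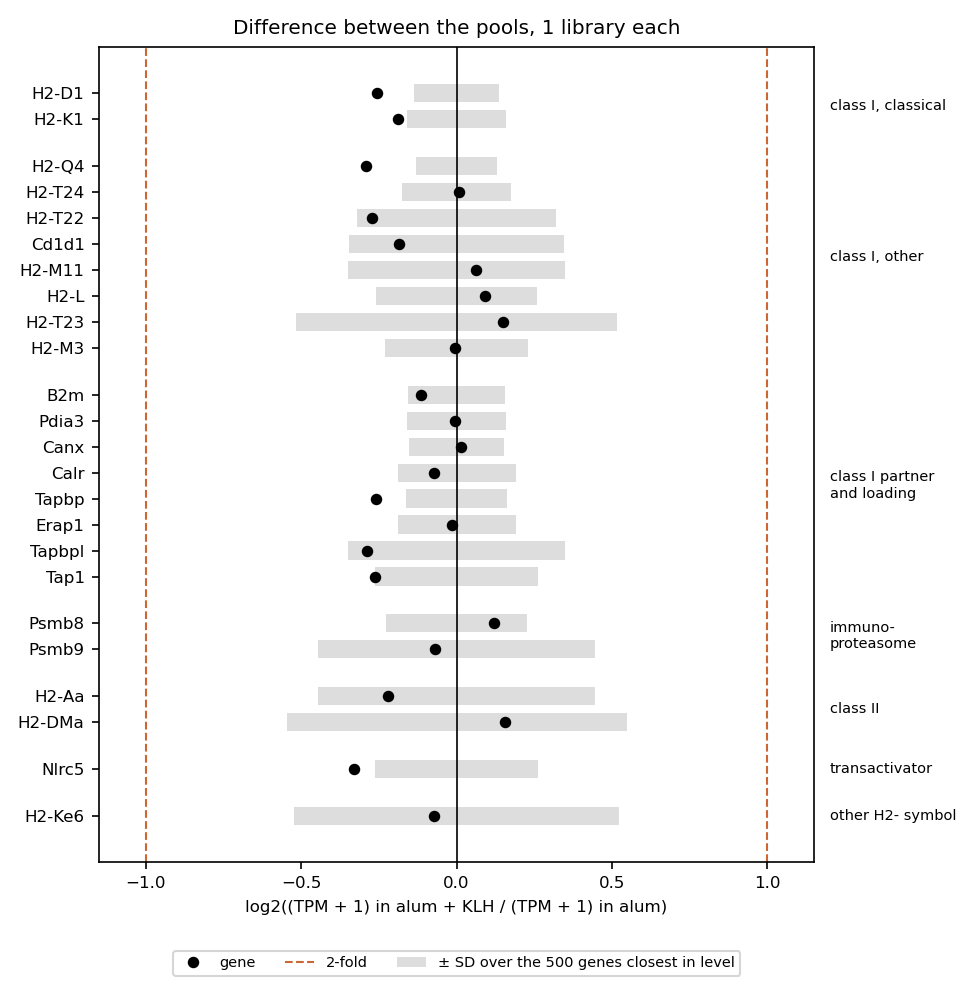
log2 ratio of KLH pool to alum pool, with 1 TPM added to each, for the 24 members above 3 TPM in at least 1 pool (points), with bars for ± 1 SD over the 500 genes closest in level and dashed lines at 2-fold. All points lie between the 2-fold lines, and H2-D1, H2-K1, H2-Q4, Tapbp, Tap1 and Nlrc5 lie to the left of their bars.

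The levels of other genes of the pathway were read from lists. Of 14 genes that carry or regulate the interferon signal to MHC promoters, 12 were detected in both pools. Among them were Ifngr1 at 35.1 and 35.5 TPM, Ifnar1 at 72.4 TPM in both and Jak1 at 399.3 and 415.4 TPM. Of these 12 genes 9 were lower and 3 higher, with a median log2 ratio of -0.040, where 56.4% of all genes were lower and their median was -0.020. Irf1, an interferon-induced activator of class I genes, was at 37.8 and 29.5 TPM, a log2 ratio of -0.350 (neighbour SD 0.158). Cd274, which encodes the checkpoint ligand PD-L1 and is also interferon-induced, was at 77.0 and 65.6 TPM, a log2 ratio of -0.226 (0.152). The costimulatory genes Cd40, Cd80 and Cd86 were below 1 TPM in both pools. Ifngr2 at 64.4 and 58.6 TPM and Stat2 at 41.5 and 37.8 TPM were, with Irf1, the members of that list that were lower by more than the neighbour SD, as were 11.0% of all genes. Psme2, described above, went the other way.

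Endolysosomal proteases that also serve class II processing were among the abundant genes, with Ctsl at 1100.7 and 1002.0 TPM and Ctsb at 714.2 and 660.3 TPM. Ctss, the protease that cuts the invariant chain in antigen-presenting cells, was at 1.78 and 2.13 TPM. All 7 further chaperones of the endoplasmic reticulum were detected, such as Hsp90b1 at 661.6 and 651.3 TPM. Their median log2 ratio was 0.013, and they ranged from 40.5 to 661.6 TPM in the alum pool.

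Markers of other cells were also compared. All 8 endothelial markers were lower in the KLH pool, their sum was 18.2 TPM in the alum pool and 13.6 TPM in the other, and Pecam1 was at 2.95 and 1.53 TPM. Of these 8 markers, 6 were at or below 3 TPM in both pools. The counts of markers use no filter, and without one 10984 of all 24411 genes were lower and 8612 higher. Of the 7 satellite glia markers, 7 were lower, with sums of 1777.4 and 1653.7 TPM and Apoe at 131.9 and 91.5 TPM. The macrophage sums were nearly equal, as given above. Schwann cell markers were lower for 4 and higher for 3, with sums of 1863.8 and 1832.7 TPM. Of 8 T lymphocyte markers listed, 6 were in the files, and they summed to 14.1 and 14.7 TPM. Most of that sum came from Cd8a, at 9.20 and 9.79 TPM, and Cd3d was at 2.97 and 3.13 TPM. Cd3e was at 0.186 and 0.0401 TPM, and Cd3g was listed at 0 in both pools. Neuronal markers were lower for 8 of 10, with sums of 17576.6 and 17325.3 TPM. The part of any of these cells in the lower class I levels was not tested.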

How the data were processed

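The authors made stranded mRNA libraries from RNA of pooled DRG neuron preparations, sequenced paired-end reads, trimmed them with cutadapt and ran kallisto on known mouse transcripts of mm10. Versions are not given in the sources used here. Each deposited row gives the TPM of 1 RefSeq transcript. The files hold no read counts and the study's methods give only a minimum depth, so no interval or detection floor was computed.

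TPM was summed per gene symbol. The members and gene lists were chosen with earlier results of these data known. Every member above 3 TPM in at least 1 pool was named, with the class II, transactivator, TAP and immunoproteasome genes below it. Ratios used a pseudocount of 1 TPM. No test was made, because each group was 1 library. Positions, promoters and 31-mers came from RefSeq and GENCODE M21 annotations of GRCm38, the assembly of mm10. The alternatives were other thresholds, pseudocounts, filters, scalings and the highest transcript of each gene, and some combinations were added after seeing the data. Calculations used Python 3.11.15, numpy 2.4.6 and pandas 2.3.3, plots used matplotlib 3.10.9, and the ratio and neighbour SD were tested on simulated data. Values of some listed genes are not reported here.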

Additional observations from a re-analysis of the deposited data

How the results depend on the processing

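The number of members detected depended on the threshold. It was 51 in the alum pool and 50 in the KLH pool at 0 TPM, and 15 and 12 at 10 TPM, in place of 23 and 24 at 3 TPM. No alternative planned at the outset brought a member to a 2-fold difference. With no filter and a pseudocount of 0.1 TPM together, an alternative chosen after seeing the data, 3 members were higher by 2-fold or more (H2-M10.4, H2-M9 and H2-Q7) and 3 lower by as much (H2-M1, H2-M10.3 and H2-Q9), all below 1 TPM, against 449 and 518 of all 24411 genes. Without a filter, 34 of 59 members were lower and 20 higher in the KLH pool, against 10984 lower and 8612 higher of 24411 genes. The counts beyond the neighbour SD under other scalings were also added after seeing the data. The count of lower members among those above 3 TPM was 14 of 24 after scaling the pools to a median ratio of 1 and 20 relative to Hprt. Scaling to the median places about as many of all genes lower as higher by design, and no share over all genes was computed beside the count relative to Hprt. The median log2 ratio of the members ranged from -0.187 (genes above 10 TPM) to -0.016 (no filter). Over all genes above 10 TPM, 25 were higher by 2-fold or more and 49 lower by as much. Of 180 recomputed log2 ratios of 36 named genes, 174 moved by no more than the neighbour SD. The other 6 were Tapbp on its highest transcript, at -0.762, and Ciita, H2-Ab1, H2-DMb1, H2-Eb2 and H2-Ob, all below 1 TPM, with a pseudocount of 0.1 TPM. The sign turned for 6 genes with ratios near 0, Erap1, H2-M3 and Pdia3 after rescaling and Canx, H2-M11 and H2-T24 relative to Hprt. No paired analysis was possible because each group was 1 library. With 1 pool per group, differences between the immunizations and between the libraries cannot be told apart.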
